A study of Mus musculus with 20 samples.

Results

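Neurogranin (Nrgn), growth-associated protein 43 (Gap43), Purkinje cell protein 4 (Pcp4) and 4 genes of calcium/calmodulin-dependent kinase signalling (Camk2a, Camk2b, Camk2n1 and Camk4) were followed through the development of the mouse habenula. These 7 genes were taken by symbol from the 37994 genes of a developmental series and from the 36104 genes of a second set at E18, and each symbol had 1 row in both. Their level by stage, the share of wells in which they were detected and their spread among cells at P4, P7 and in the adult chose them, so those values are given as a description, without a test. RNA of single cells was counted on 20 plates of 384 wells with Cel-seq2, which tags the 3′ end of each transcript with a unique molecular identifier (UMI). The series held 15 plates of habenula from the Brn3a-tauLacZ line, a line named for a tau-LacZ reporter at the Brn3a (now Pou4f1) locus, with 1 plate at E12 and 2 plates for every other stage (adult, P7, P4, E18, E15, E13, E11). The second set held C57BL/6 habenula at E18, with 2 plates of the left side, 2 of the right side and 1 of both sides. The sources used here do not give genotype at the reporter locus, sex, treatment, adult age, animals per plate or any cell sorting gate, so p-values measure the spread between plates, which may be partly technical.

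Calmodulin is the main calcium sensor of neurons. Neurogranin, GAP43 and PCP4 are small proteins that bind calmodulin through an IQ motif: neurogranin sits in dendrites and spines, GAP43 in growth cones and growing axons, and PCP4 speeds the exchange of calcium on calmodulin. Camk2a and Camk2b encode the main neuronal subunits of CaMKII, the kinase that calmodulin switches on at synapses, Camk2n1 encodes an inhibitor of CaMKII, and Camk4 encodes a nuclear kinase that acts on CREB. The habenula relays forebrain input to the midbrain, and its medial part holds cholinergic neurons and neurons that make substance P from Tac1.

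In GENCODE release M21 (GRCm38, the same assembly as the mm10 named in the submitters' processing notes), Nrgn (ENSMUSG00000053310) lies at chr9:37544492-37552904 on the minus strand and Gap43 (ENSMUSG00000047261) at chr16:42248442-42340651 on the minus strand. Pcp4 (ENSMUSG00000090223) lies at chr16:96467606-96525793 on the plus strand, Camk2b (ENSMUSG00000057897) at chr11:5969644-6066362 on the minus strand and Camk2n1 (ENSMUSG00000046447) at chr4:138454314-138460123 on the plus strand. Pcp4 is uncertain, because an annotated Igsf5 gene (ENSMUSG00000117081, chr16:96361794-96525580, plus strand) runs across it. The deposited Igsf5 row has another ID (ENSMUSG00000000159, chr16:96361668-96422121, plus strand), whose annotated span does not overlap Pcp4. That row held between 45.8% and 89.3% of the Pcp4 level on each of the 20 plates, and whether counts were split between the genes was not tested. Gap43, Camk2a and Camk4 also overlap small or antisense genes, and no source used here says whether counting used strand.

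The RefSeq promoter table (GRCm38.p6) gave windows from 250 bases before to 50 bases after the start site, and those of Nrgn, Pcp4 and Camk2b are shown because the levels of these 3 genes were all higher after birth. They lie at chr9:37552696-37552995 on the minus strand, chr16:96467356-96467655 on the plus strand and chr11:6065699-6065998 on the minus strand. Capitals mark matches, on either strand, to the E-box CANNTG, the GC box GGGCGG, the TATA core TATAAA and the cAMP response element TGACGTCA, to which CREB binds.
Nrgn: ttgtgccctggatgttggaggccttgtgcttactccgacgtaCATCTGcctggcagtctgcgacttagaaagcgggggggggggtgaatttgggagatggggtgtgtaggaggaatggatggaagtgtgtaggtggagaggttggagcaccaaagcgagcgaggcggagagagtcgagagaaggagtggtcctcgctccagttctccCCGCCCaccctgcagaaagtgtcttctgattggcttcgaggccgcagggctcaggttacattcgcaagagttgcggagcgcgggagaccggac
Pcp4: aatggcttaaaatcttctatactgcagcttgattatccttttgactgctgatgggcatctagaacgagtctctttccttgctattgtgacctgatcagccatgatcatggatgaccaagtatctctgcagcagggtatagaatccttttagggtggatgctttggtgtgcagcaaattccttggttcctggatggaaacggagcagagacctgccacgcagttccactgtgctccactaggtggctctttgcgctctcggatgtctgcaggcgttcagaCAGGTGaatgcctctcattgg
Camk2b: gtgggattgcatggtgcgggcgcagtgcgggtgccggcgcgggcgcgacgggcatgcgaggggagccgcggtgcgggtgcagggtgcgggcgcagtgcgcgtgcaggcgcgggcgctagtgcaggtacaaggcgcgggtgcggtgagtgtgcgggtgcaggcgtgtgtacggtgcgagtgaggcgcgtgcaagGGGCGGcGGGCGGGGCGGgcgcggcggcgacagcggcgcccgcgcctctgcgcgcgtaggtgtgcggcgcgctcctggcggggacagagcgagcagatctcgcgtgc
Nrgn held 1 E-box at -208 and 1 GC box on the opposite strand at -43, counted from the start site. Pcp4 held 1 E-box at 29. Camk2b held 3 GC boxes, of which the last pair share a base, in a window of 77.3% G and C with 51 CG dinucleotides, against 48.7% and 6 in Pcp4 and 59.3% and 17 in Nrgn. Over all 32851 promoter windows, 72.3% held the E-box, 35.7% the GC box, 13.6% the TATA core and 1.79% the cAMP response element, and the last pair had no match in the 3 windows. These matches are descriptions of letters and not binding sites.

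After filtering, 3729 of 5756 wells of the series and 1082 of 1920 wells of the second set were kept as cells. Total counts in kept wells ran from 758697 to 7760372 per plate and the median per kept well from 5058 to 29096. The fewest wells were kept on the second left plate at E18 (54) and on adult plate 1 (56). Adult plate 1 stood apart in its median mitochondrial share of 11.9%, against 4.10% to 6.56% on the other plates. Summed neuron markers were lowest on E18 plate 1 (2385 CPM, counts per 1000000 counts of the plate) and E13 plate 2 (4167 CPM) and ran from 5043 to 11043 CPM elsewhere. The same pair had the highest summed progenitor markers, at 2322 and 1722 CPM, and ependymal markers, at 1063 and 3906 CPM. The habenula marker list, led by Pou4f1, was at 366 CPM on E18 plate 1 and at 997 to 7210 CPM on the others. Levels below are CPM over all kept wells of a plate, so fewer cells of a type and less RNA per cell cannot be told apart.

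Gap43 was highest at the earliest stage. It stood at 2794 and 2779 CPM on the 2 plates of E11, 2305 at E12, 1386 and 436 at E13, 1026 and 726 at E15, and 294 and 598 at E18. P4 plates gave 61.0 and 26.1 CPM, P7 plates 28.8 and 45.8, and adult plates 162 and 79.4. All 9 embryonic plates of the series therefore lay above all 6 later ones. The mean at P4 was 0.0156 of that at E11. The order of the stage means followed age from E11 to E18, although the plates of E13 overlapped those of E15 and of E18. P4 and P7 overlapped at the bottom. Both adult plates lay above both P7 plates. The first adult value rests on few wells: without the 13 very deep wells of adult plate 1, those above 3 times its median count, Gap43 was at 69.0 CPM there, below the other adult plate and still above P7. In wells with a Pou4f1 UMI, the marker of habenular neurons used here, the E18 plates held 714 and 622 CPM of Gap43. Such wells were 75 of 267 on plate 1 and 94 of 110 on plate 2. At E13 wells with Pou4f1 held 1476 and 648 CPM and at E15 1033 and 710, so E13, E15 and E18 overlapped in them. C57BL/6 plates at E18 gave 677 and 327 CPM on the left, 784 and 520 on the right and 976 for both sides.

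Nrgn took the opposite course. Its level was 1.55 and 0.204 CPM at E11, 5.05 at E12, 6.25 and 13.8 at E13, 18.5 and 196 at E15, and 5.19 and 17.3 at E18. After birth the P4 plates held 1588 and 1658 CPM, the P7 plates 1565 and 1275, and the adult plates 712 and 1293. The lowest of the 6 plates from P4 onwards was above the highest embryonic plate. P4 and P7 did not overlap, by a gap smaller than the spread of the P7 plates, and P7 and the adult overlapped. Every C57BL/6 plate at E18, at 202 to 379 CPM, was above every embryonic plate of the reporter line, and E18 of that line lay lower than its own E15 plate 2. Restricting to wells with Pou4f1 left this gap in place, with 3.67 and 18.6 CPM on the E18 plates of the reporter line and 337 to 433 CPM on the C57BL/6 plates. Mouse line, plate set and dissection cannot be told apart there.

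Pcp4 was at 7.34 and 10.6 CPM at E11 and at 280 at E12. Its embryonic plates disagreed, with 321 and 11.2 CPM at E13, 15.2 and 496 at E15, and 37.5 and 92.1 at E18. P4 plates held 1017 and 905 CPM, P7 plates 1136 and 1287, and adult plates 1454 and 1753. The last 3 stages did not overlap and stood in order of age. On the C57BL/6 plates Pcp4 was at 379 to 597 CPM. Within each embryonic stage of 2 plates, the plate with more Pcp4 was also the one with more Camk2b.

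The CaMKII subunits were measured at lower counts. Camk2b was at 29.0 and 30.4 CPM at E11, 63.8 at E12, 12.5 and 6.37 at E13, 8.14 and 38.9 at E15, and 5.99 and 79.1 at E18. P4 plates held 204 and 202 CPM, P7 plates 252 and 248, and adult plates 152 and 226. These later plates all lay above the embryonic plates of the same line, and the C57BL/6 plates were between, at 93.4 to 149 CPM, although adult plate 1 was at 115 without its very deep wells. Camk2a (ENSMUSG00000024617, chr18:60925618-60988152, plus strand), the subunit that dominates in the adult forebrain, stayed at 0 to 9.16 CPM on the series plates from E11 to P4. P7 plates held 13.3 and 17.4 CPM and adult plates 18.5 and 23.9, above all earlier plates of the series. The value of adult plate 1 rests on 14 counts and was 4.6 CPM without its very deep wells, below both P7 plates, so the place of the adult in this order is not firm. The C57BL/6 plates at E18 gave 13.7 and 2.70 CPM on the left, 8.14 and 2.31 on the right and 15.0 for both sides, so they overlapped the P7 plates. On E13 plate 2 no Camk2a count was seen, where 3 counts would have been 1.59 CPM. Most Camk2a UMIs were unspliced, between 64.2% and 79.6% on the plates from P4 to the adult, whereas over all genes 22.2% to 26.4% were. Camk4 was also rich in unspliced UMIs on those plates, at 26.5% to 61.9%. In contrast, no more than 0.459% of Nrgn and 0.333% of Camk2n1 UMIs were unspliced there.

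Camk4 (ENSMUSG00000038128, chr18:32934931-33191228, plus strand), the nuclear kinase, was at 8.50 and 8.99 CPM at E11, 19.2 at E12, 6.25 and 3.19 at E13, 4.89 and 11.9 at E15, and 8.78 and 14.3 at E18. It was at 58.2 and 57.5 CPM at P4 and 59.8 and 63.2 at P7, then at 27.7 and 19.3 in the adult. P4 and P7 thus stood above every other stage of the series, and the adult lay close to E12. Adult plate 1 was at 18.4 CPM without its very deep wells. The C57BL/6 plates ranged from 26.5 to 60.0 CPM. Camk2n1, the inhibitor, had the flattest course as a ratio. It was at 149 and 171 CPM at E11, 207 at E12, 331 and 293 at E13, 492 and 231 at E15, and 265 and 321 at E18. P4 plates held 221 and 194 CPM, P7 plates 170 and 191, and adult plates 396 and 247. Its highest and lowest stage means were 362 CPM at E15 and 160 at E11, the smallest ratio among the 7 genes, and most neighbours in the order overlapped.

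**Figure D1:**
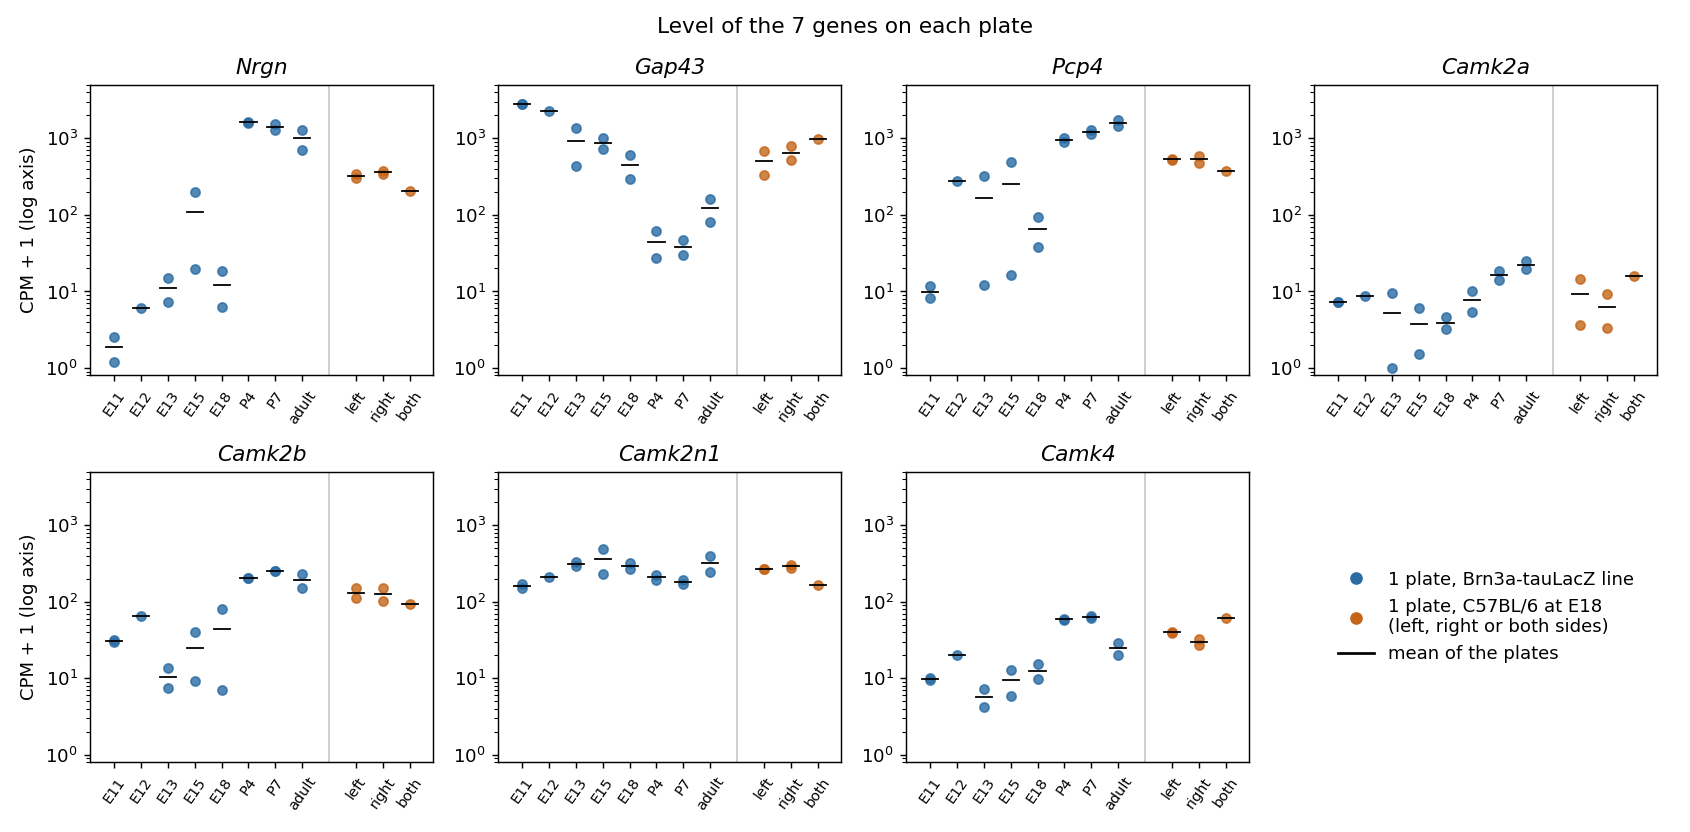
Level of each gene on every plate, as CPM + 1 on a log axis, by stage for the Brn3a-tauLacZ series (blue) and for C57BL/6 at E18 (orange). Points are plates and lines are means. Gap43 lies between 26.1 and 162 CPM on the 6 plates from P4 onwards, all kept wells included, where Nrgn lies between 712 and 1658 CPM.

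Wells were thinned to 3000 UMIs so that shares of wells with a UMI could be compared across depths, which left out 5 to 35 wells per plate. Nrgn was then seen in 87.6% and 90.5% of P4 wells, 80.3% and 79.9% of P7 wells, and 67.6% and 76.5% of adult wells. At E11 it was seen in 0.332% of wells on plate 1 and in 0 of 331 on the other plate, where a share of up to 0.906% would still be allowed. Without thinning the later shares were 83.9% to 99.0%. Wells that should hold little neuronal RNA were not free of Nrgn: of adult wells led by myelin markers, 50.0% of 10 and 61.5% of 26 had a UMI after thinning, at medians of 4047 and 6622 counts for all such wells. Gap43 was seen in 95.3% and 95.5% of thinned wells at E11, 36.6% and 72.5% at E18, then 8.73% and 4.92% of P4 wells, 6.25% and 8.76% of P7 wells, and 10.8% and 16.0% of adult wells. In the adult wells led by myelin markers it was seen in 10.0% and 15.4%. On adult plate 1 Gap43 was at 204 CPM in wells with Pou4f1 and 44.5 in wells without, and on plate 2 at 71.8 and 109.8. Pcp4 was seen in 74.3% to 87.6% of thinned wells from P4 to the adult, Camk2b in 18.9% to 51.8%, Camk2n1 in 35.6% to 73.0%, Camk4 in 4.89% to 15.1% and Camk2a in 1.31% to 5.21%.

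Nrgn and Pcp4 varied far more among wells than counting alone gives. The ratio of variance to mean in thinned wells (Fano factor, 1 for pure counting) was 2.5 to 4.01 for Nrgn and 2.74 to 7.65 for Pcp4 on the 6 plates from P4 to the adult. The median over the 1146 to 1218 genes with a mean of at least 0.5 UMI was 1.19 to 1.76. Nrgn ranked between 27 and 194 among those genes and Pcp4 between 20 and 79. Camk2b had 0.972 to 1.38 and ranked between 369 and 1198 on the 5 plates where its mean reached 0.5 UMI, near the bottom on P4 plate 2 and P7 plate 2. Camk2n1 had 1.32 to 1.86 and ranked between 296 and 529. Ranks were not adjusted for the mean, which was 1.86 to 4.88 UMIs for Nrgn, 3.16 to 4.73 for Pcp4 and 0.243 to 0.744 for Camk2b. Per thinned well at P4 plate 1, Nrgn had a median of 4 UMIs and a highest value of 17, and Pcp4 a median of 3 and a highest value of 24. Gap43 was seen in few wells: no more than 16.0% of thinned wells from P4 to the adult held any. Its mean there was 0.0951 to 0.244 UMI and its Fano factor 1.75 to 3.375.

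**Figure D2:**
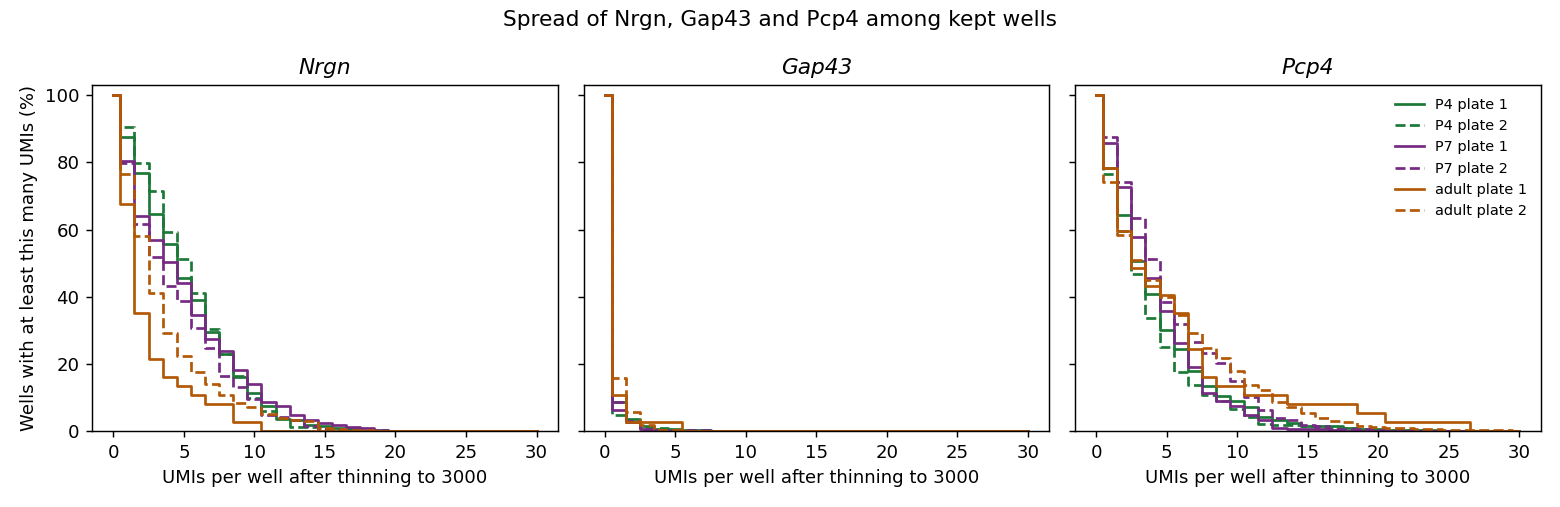
Share of kept wells (%) with at least a given number of UMIs, after thinning each well to 3000 UMIs, for 2 plates each of P4, P7 and the adult. Nrgn and Pcp4 reach 19 and 29 UMIs in single wells, while Gap43 is absent from most wells on all 6 plates.

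At P4 and P7, Gap43 was seen in a larger share of wells with little Nrgn than of wells with much of it. Of wells with 5 or more thinned Nrgn UMIs, 1.60% and 2.56% had a Gap43 UMI at P4 and 2.13% and 0.943% at P7. Of wells with 1 or fewer Nrgn UMIs, 29.7% and 9.68% had one at P4 and 12.2% and 15.2% at P7. Adult plate 2 had the same order, with 4.35% of 69 against 16.3% of 129 wells, and adult plate 1 the opposite one, with 1 of 5 against 2 of 24 wells. Spearman's rho between Nrgn and Gap43 across wells was -0.32 and -0.13 on the P4 plates, -0.16 and -0.23 on the P7 plates, and 0.07 and -0.06 on the adult plates, as a description of cells that share a plate. Among the other pairs of the 7 genes the largest rho in size on these P4 and P7 plates was -0.22, between Gap43 and Pcp4 on P4 plate 1. On P4 plate 2, Pcp4 and Camk2a, at 0.17, exceeded Nrgn and Gap43 in size. Adult pairs reached 0.48 on plate 1 and 0.31 on plate 2, both for Pcp4 and Camk2b.

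Groups of wells defined by other marker genes were then compared within the P4 and P7 plates. The genes followed here were chosen partly by their spread among these same wells, which favours genes that differ between groups of wells. The well groups were also chosen with earlier results of these data known. For these genes, p-values and shares called between well groups are therefore not independent of how genes and groups were chosen. Cholinergic wells had at least 3 UMIs of Chat, Slc18a3 and Slc5a7 together, which make and move acetylcholine, and no fewer than of Tac1, and Tac1 wells had at least 5 UMIs of Tac1 and at least 5 times as many as of those genes. These are ranges of a UMI count and not cell types, and 39 to 58 wells per plate lay within 1 UMI of the cholinergic minimum and 5 to 19 within 1 UMI of the Tac1 minimum. Nrgn was strongly higher in cholinergic wells. It stood at 1917, 1787, 2197 and 1926 CPM in cholinergic wells of the 2 plates of P4 and the 2 of P7 (192, 243, 186 and 140 wells). In Tac1 wells it was at 270 CPM on P4 plate 1 and at 202 and 176 on the P7 plates (18, 45 and 45 wells). P4 plate 2 had 5 Tac1 wells, under the minimum of 10, and was left out of the test. The groups did not overlap, at 1957 ± 172 CPM (SD, n = 4) against 216 ± 48.5 (SD, n = 3). The difference was 9.78-fold, a log2 fold change of 3.29 ± 0.10 (SE) with an adjusted p of 1.89e-13 in edgeR's quasi-likelihood test with plate as a block. Wells without a Pou4f1 UMI on the 4 plates held 397 to 645 CPM of Nrgn at medians of 4183 to 10220 counts, more than the Tac1 wells, and how much of the Nrgn in Tac1 wells is free RNA was not tested.

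Gap43 differed the other way. Cholinergic wells held 21.6, 19.5, 6.53 and 7.23 CPM on the 4 plates, and Tac1 wells 120, 45.5 and 53.6 CPM on the 3 tested. Every Tac1 value lay above every cholinergic one. Gap43 was 6.37-fold lower in cholinergic wells (log2 fold change -2.67 ± 0.22, edgeR adjusted p = 6.79e-08). The Tac1 values rest on few wells. A UMI was seen in 55.6%, 37.8% and 26.7% of Tac1 wells and in 11.8% to 18.1% of cholinergic wells, and the 3 Tac1 wells with most Gap43 held 57.4%, 52.7% and 81.8% of its UMIs. Median counts per well were 22852 to 25869 in cholinergic and 23153 to 24952 in Tac1 wells of the tested plates. Wells in neither group held more Gap43 than either on 3 of the 4 plates, at 226, 47.3, 90.5 and 135 CPM. Their summed astrocyte, progenitor and vascular markers were also higher than in cholinergic wells, for example 871 against 59.8 CPM of astrocyte markers on P4 plate 1, and the part of those cells in the Gap43 level was not tested.

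The other 5 genes did not pass the test between cholinergic and Tac1 wells. In edgeR, the log2 fold changes with 95% intervals were -0.11 (-0.25 to 0.03) for Pcp4, -0.13 (-0.32 to 0.07) for Camk2b, -0.10 (-0.39 to 0.18) for Camk2n1, -0.19 (-0.52 to 0.15) for Camk4 and 0.39 (-0.42 to 1.21) for Camk2a. The interval of Camk2a is the widest of these 5. Thus 2 of the 7 genes were called, in opposite directions, where 16% of 12055 genes were (7.62% higher and 8.4% lower). Both calls were made in each of the 11 alternative analyses. Adult wells gave the same order without a test. On adult plate 1 Nrgn was at 1862 CPM (Poisson interval 1676 to 2062) in 8 cholinergic wells and 235 (174 to 312) in 7 Tac1 wells, and Gap43 at 45.8 (20.9 to 86.9) and 152 (103.4 to 215.8). On adult plate 2 Nrgn was at 1975 CPM (Poisson interval 1922 to 2028) in 105 cholinergic wells and 399 (332 to 474) in 18 Tac1 wells. Gap43 there was at 21.4 CPM (16.2 to 27.7) and 72.2 (45.8 to 108), although 84.2 (46.0 to 141) in wells led by myelin markers.

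**Figure D3:**
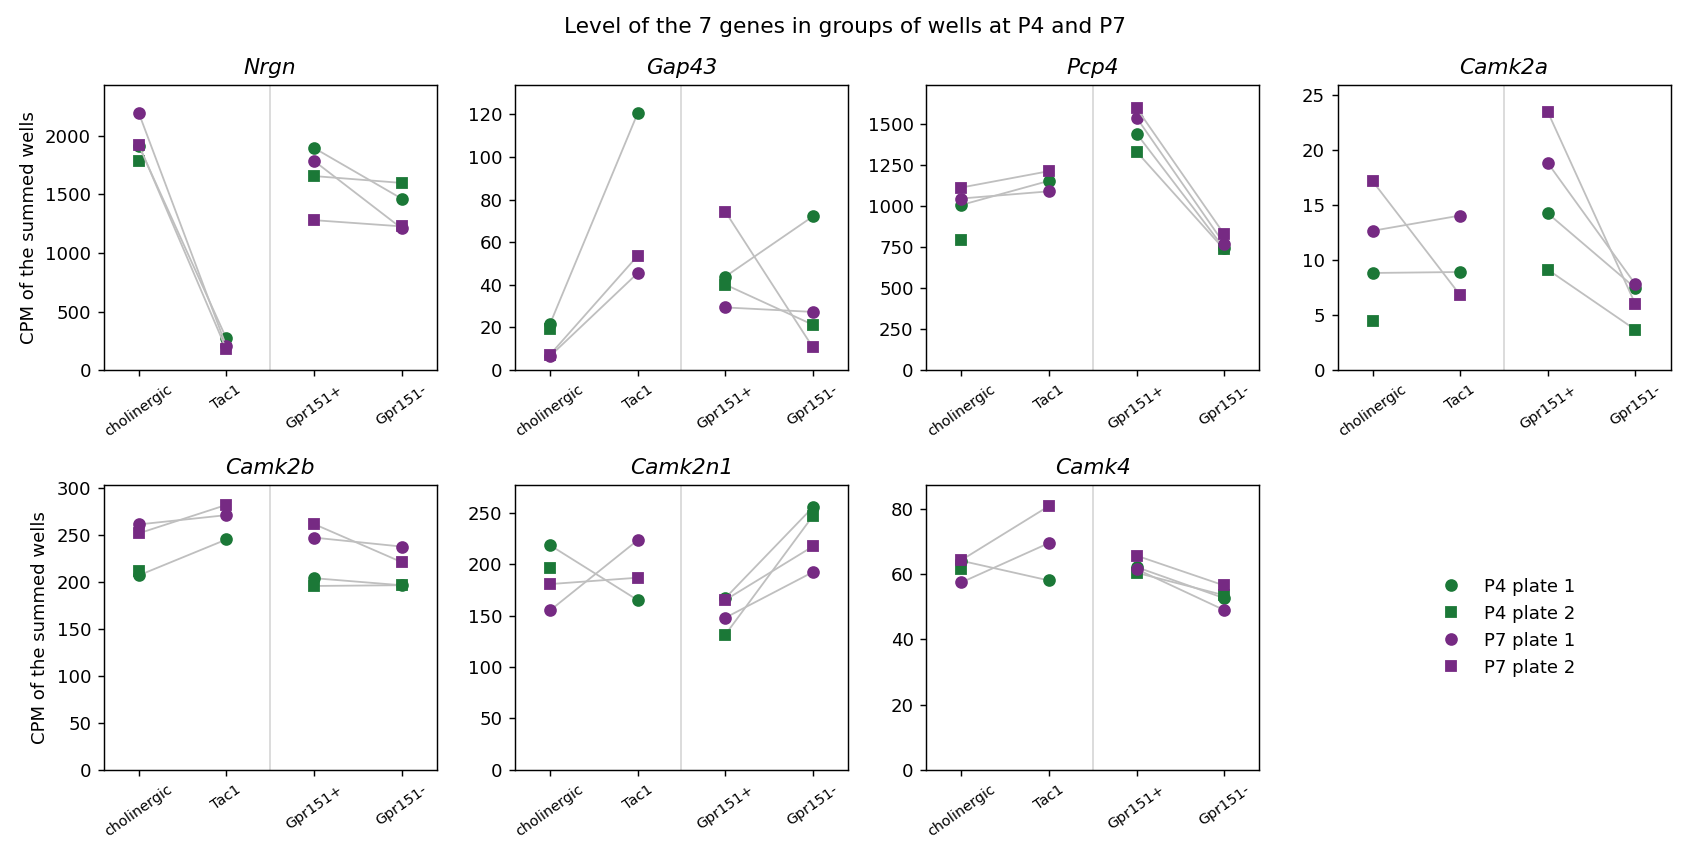
Level of each gene (CPM of the summed wells, linear axis from 0) in 4 groups of wells on the P4 and P7 plates, with lines joining the groups of 1 plate. Cholinergic wells hold 1787 to 2197 CPM of Nrgn and Tac1 wells 176 to 270, and Gpr151-positive wells exceed Gpr151-negative wells in Pcp4 on all 4 plates.

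Gpr151, an orphan receptor of habenular axons, divided the wells differently. Wells with at least 3 Gpr151 UMIs numbered 83, 83, 141 and 127 on the 4 plates, and those with none 139, 158, 111 and 102. Of the positive wells, 62, 58, 86 and 59 were also cholinergic wells and 7, 4, 12 and 14 Tac1 wells. This comparison and the preceding one therefore share wells. Pcp4 was higher in positive wells, at 1443, 1332, 1540 and 1598 CPM against 743, 736, 771 and 829. The groups did not overlap, and the difference was 1.97-fold (log2 fold change 0.98 ± 0.06, edgeR adjusted p = 3.64e-09). Camk2a was at 14.2, 9.13, 18.8 and 23.5 CPM in positive and at 7.45, 3.66, 7.79 and 5.98 in negative wells, again without overlap. The log2 fold change of Camk2a was 1.39 ± 0.26 (edgeR adjusted p = 0.00104). These Camk2a values rest on few counts, at a mean of 0.0131 to 0.0438 UMI per thinned well on the 4 plates. Of the Camk2a UMIs on those plates, 65.5% to 79.6% were unspliced, and spliced UMIs alone were not tested. Camk2n1, the inhibitor, was lower in positive wells, at 167, 131, 148 and 165 CPM against 255, 247, 192 and 217, with a log2 fold change of -0.54 ± 0.09 (edgeR adjusted p = 0.000427). These 3 calls were made in each of the 12 alternative analyses, all of which used wells of these same plates.

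Nrgn showed a small difference that was less stable. It was at 1897, 1657, 1787 and 1281 CPM in Gpr151-positive and at 1464, 1599, 1211 and 1227 CPM in negative wells, higher on each plate, with overlap between plates. The log2 fold change was 0.30 ± 0.08 (edgeR adjusted p = 0.0130). The call was lost in 4 of 12 alternatives. One of these kept only wells with Pou4f1 (0.19, edgeR adjusted p = 0.123), and others left out P4 plate 1 (0.26, 0.0827) or P7 plate 1 (0.21, 0.111). Gap43 was at 43.8, 40.1, 29.4 and 74.3 CPM in positive and 72.1, 21.2, 27.3 and 10.6 in negative wells, and did not pass (0.58 ± 0.33, edgeR adjusted p = 0.314). It passed when P4 plate 1 was left out (1.15, edgeR adjusted p = 0.0148) and without a filter on low counts (0.61, edgeR adjusted p = 0.00137). Camk4 (0.28 ± 0.11) and Camk2b (0.12 ± 0.07) did not pass. In all, 4 of the 7 genes were called, 3 higher and 1 lower in positive wells, where 14.6% of 12233 genes were (6.06% higher and 8.58% lower). Depth moved with these groups: median counts were 20941 to 24582 per positive well and 10558 to 17578 per negative well. Negative wells also held more astrocyte markers, 307 to 451 CPM against 44.0 to 59.0. The calls of Pcp4, Camk2a and Camk2n1 were also made in wells with Pou4f1 alone. Negative wells there were still shallower, at medians of 18030, 19525, 22330 and 14785 counts on the 4 plates. Positive wells had 22820, 22638, 24653 and 21686, and no alternative matched depth.

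**Figure D4:**
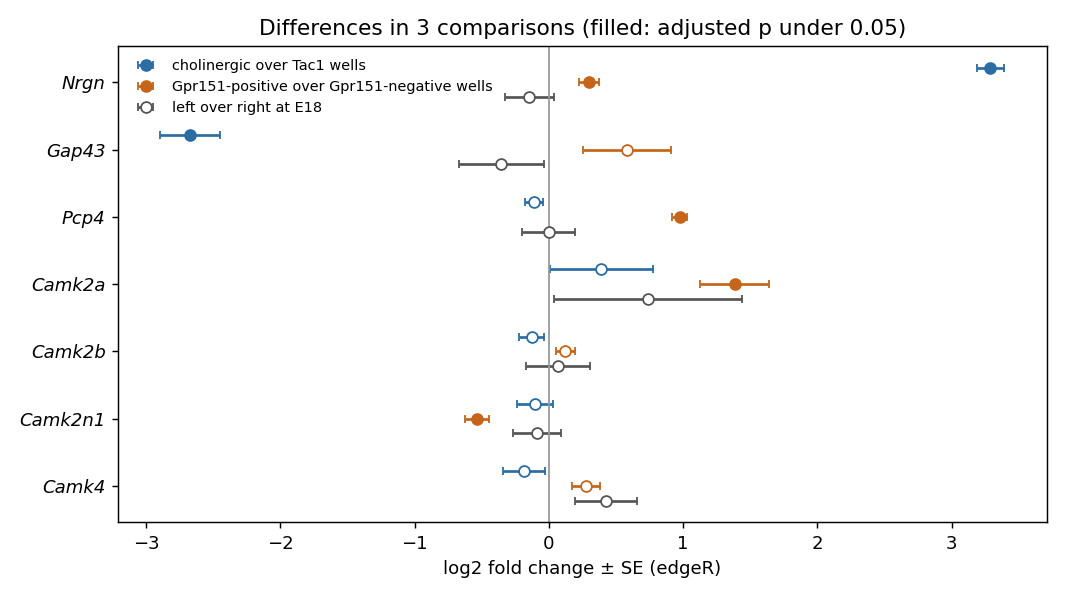
Log2 fold change (± SE, edgeR) of the 7 genes between cholinergic and Tac1 wells, between Gpr151-positive and Gpr151-negative wells, and between the left and right habenula. Filled points passed an adjusted p of 0.05. Nrgn lies at 3.29 and Gap43 at -2.67 in the first comparison, and no gene is filled for left against right.

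Between the left and right habenula of C57BL/6 mice at E18, none of the 7 genes was called. Nrgn was at 339 and 301 CPM on the left and 379 and 339 on the right, and Camk4 at 39.5 and 37.9 on the left and 31.9 and 26.5 on the right. Gap43 was at 677 and 327 CPM on the left and 784 and 520 on the right. Kept wells numbered 283 and 54 on these left plates and 279 and 133 on the right plates. The plates of the sides did not overlap for Camk2n1 and Camk4, nearly touched for Nrgn, which overlapped without very deep wells, and overlapped for the other 4 genes. The log2 fold changes, left over right, were -0.14 (95% interval -0.55 to 0.27) for Nrgn, -0.36 (-1.05 to 0.34) for Gap43, 0.42 (-0.08 to 0.93) for Camk4, 0.00 (-0.44 to 0.44) for Pcp4, 0.07 (-0.45 to 0.59) for Camk2b, -0.09 (-0.48 to 0.31) for Camk2n1 and 0.74 (-0.81 to 2.29) for Camk2a. edgeR called 0% of 15489 genes, with 182 at an unadjusted p under 0.05, and DESeq2 called 1. In counts simulated for this design with the same dispersion for every gene, 64% of genes changed by a log2 of 1.5 were recovered. Small differences would thus be missed, and the share at the real spread between plates is not known. Haemoglobin and other erythroid markers were at 19048 and 17219 CPM on the left plates and 3410 and 265 on the right, and their part in these values was not tested.

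Other genes of calmodulin signalling were followed through a list of 58 genes, all of which were tested. Between E11 and P4, 16 rose and 5 fell, where 24.3% of 17453 genes were called (13.2% higher and 11.1% lower at P4). The list's median log2 fold change was 0.42, against 0.02 over all genes. The AMPA receptor gene Gria1 rose from 16.2 and 16.3 to 988 and 1049 CPM (6.03 ± 1.04 on the log2 scale, with an adjusted p of 0.00213 in edgeR), and the NMDA receptor genes Grin2b and Grin1 rose by 3.57 ± 0.76 and 3.32 ± 0.63. Pde1a, a calmodulin-activated phosphodiesterase, rose by 5.50 ± 0.63, and the CaMKII subunit Camk2d by 2.27 ± 0.25, from 50.6 and 39.8 to 209 and 208 CPM. The 5 that fell included the kinases Camk1g (-2.47 ± 0.62) and Camk1d (-1.68 ± 0.42), the growth cone protein Basp1 (-1.60 ± 0.30) and the adenylyl cyclase Adcy1 (-1.49 ± 0.39). The fifth was the calcineurin subunit Ppp3ca, named here after its values were seen. Calm2 and Calm3, which encode calmodulin and whose reads may be shared with related copies, did not pass, at -0.53 ± 0.27 and -0.79 ± 0.30. The CaMKII subunit Camk2g did not pass either, at 0.40 ± 0.18. With any 1 of the 4 plates of this contrast left out, fewer genes were called, in the list and over all genes. Camk1g, Camk1d and Adcy1 kept their calls in 8 and Grin2b in 10 of 12 alternatives.

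Between E18 and P4, 12 genes of the list rose and 1 fell, where 19.6% of all genes were called (9.2% higher and 10.4% lower at P4). Grin2a (3.0 ± 0.55), the kinase-like Camkv (2.73 ± 0.63), Pde1a (2.62 ± 0.55) and Grin1 (2.38 ± 0.63) rose most, Camk2d rose by 0.99 ± 0.24, and Pde1c fell by 1.59 ± 0.48. Of 12 alternatives, Camkv and Grin1 kept their calls in 8, Pde1a and Camk2d in 9 and Pde1c in 7. Calm2, Calm3 and Camk2g gave 0.79 ± 0.27, 0.27 ± 0.30 and 0.46 ± 0.19 and did not pass. This contrast rests on single plates. Without E18 plate 2 more genes were called, in the list and over all genes. Without E18 plate 1, P4 plate 1 or P4 plate 2 fewer were, in both. E18 plate 1 is the plate with 2385 CPM of neuron, 366 of habenula and 2322 of progenitor markers, against 5771, 3987 and 179 on E18 plate 2, and their part in these calls was not tested. Both this contrast and the preceding one use the P4 plates.

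From P4 to P7, 0 of the 58 genes were called by edgeR and 0 by DESeq2, where edgeR called 0.00573% of all genes, DESeq2 called 22 and 475 had an unadjusted p under 0.05. The list median was 0.04. An edgeR fit of only the 4 plates of this contrast called 6 of the 58, 4 higher and 2 lower at P7, and 541 of 14871 genes. From P7 to the adult 3 genes fell, where 3.58% of all genes were called and 1.82% were lower: Marcksl1 by 2.56 ± 0.28 (edgeR adjusted p = 0.00170), Basp1 by 1.80 ± 0.30 and Marcks by 1.39 ± 0.23. As background, all 3 encode membrane-bound proteins that are substrates of protein kinase C. Marcksl1 was at 1101 and 1170 CPM at P7 and 216 and 201 in the adult, Basp1 at 595 and 671 and then 176 and 215, and Marcks at 939 and 966 and then 373 and 410. Of 12 alternatives, Marcksl1 kept its call in 12, and Basp1 and Marcks kept theirs in 9. Without either P7 plate or adult plate 1 fewer genes were called, and without adult plate 2 more, in the list and over all genes. Oligodendrocyte markers were at 149 to 159 CPM at P7 and at 10844 and 2505 in the adult, and their part in this was not tested. Levels of Gap43 in the adult were not below P7, as given above.

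**Figure D5:**
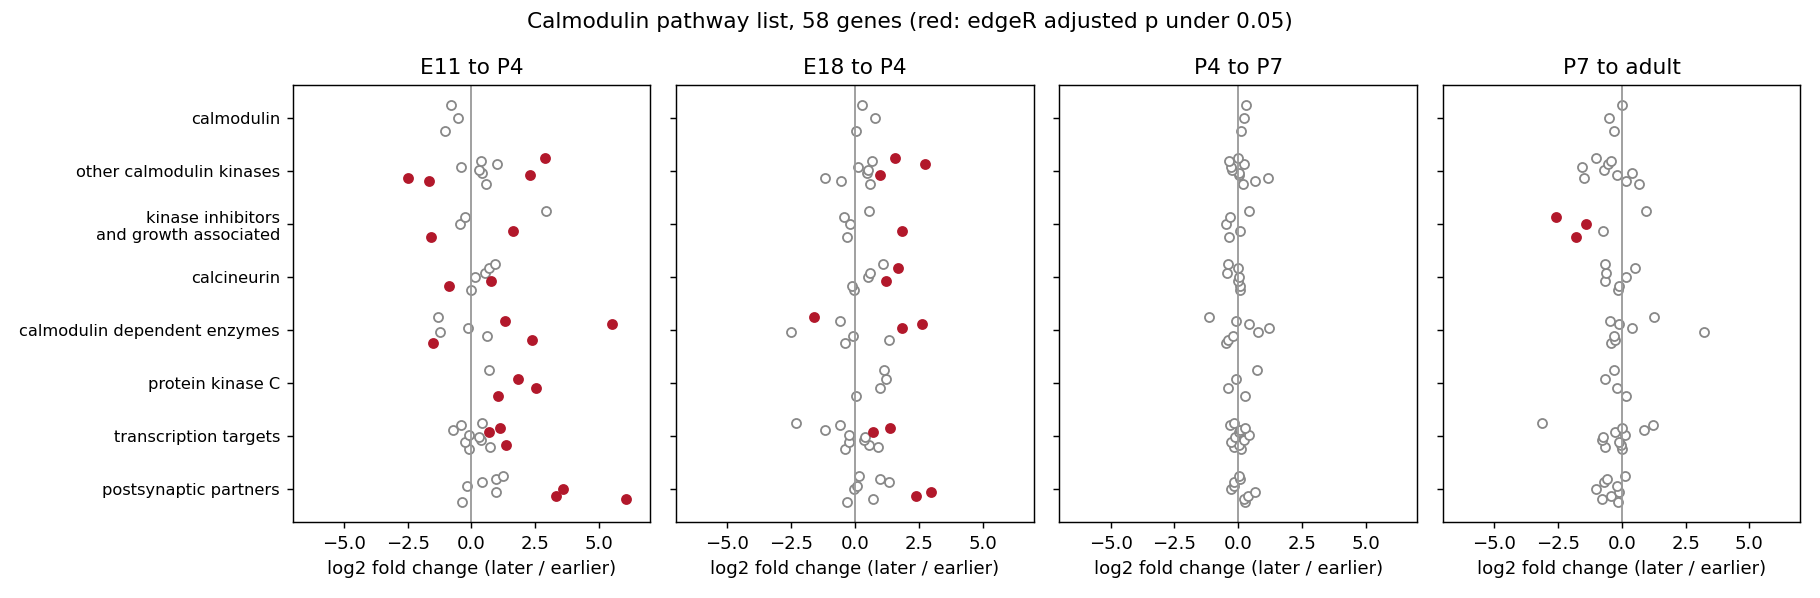
Log2 fold change of the 58 genes of the calmodulin list in 4 contrasts of stages, grouped by role, with genes past an edgeR adjusted p of 0.05 in red. Red points number 21, 13, 0 and 3, and the 3 of the last contrast lie among the 5 kinase inhibitors and growth-associated genes.

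Within the P4 and P7 plates, 18 of the 56 list genes tested differed between cholinergic and Tac1 wells, 5 higher and 13 lower in cholinergic wells, where 16% of all genes did (7.62% higher and 8.4% lower). The list median was -0.02, against 0.00 over all genes. Lower were Camk1g (-3.76 ± 0.45), Adcy1 (-2.43 ± 0.38), Camk1d (-1.73 ± 0.18) and Nos1, the neuronal nitric oxide synthase (-1.58 ± 0.17). Prkcb, a protein kinase C (1.07 ± 0.08), Pcp4l1, a relative of Pcp4 (0.98 ± 0.24), Adcy8 (0.88 ± 0.12) and the kinase Dapk1 (0.75 ± 0.11) were higher. Calm2 was lower (-0.26 ± 0.07), while Calm3 (0.03 ± 0.08), Camk2d (0.05 ± 0.10) and Camk2g (0.01 ± 0.13) did not pass. Between Gpr151-positive and Gpr151-negative wells 21 of 56 differed, 13 higher and 8 lower in positive wells, where 14.6% of all genes did (6.06% higher and 8.58% lower). Grin2a (1.56 ± 0.09), Nos1 (1.43 ± 0.14), Pde1a (0.92 ± 0.08) and Camk1d (0.81 ± 0.19) were higher, and Pcp4l1 (-1.51 ± 0.15), Pde1c (-1.30 ± 0.33), Adcy1 (-1.30 ± 0.29) and Prkcb (-0.79 ± 0.06) lower. Camk2d was also higher (0.26 ± 0.08), whereas Calm2 (0.00 ± 0.06), Calm3 (0.02 ± 0.06) and Camk2g (-0.08 ± 0.09) did not pass. Pcp4 and its relative Pcp4l1 thus differed in opposite directions between the Gpr151 groups. Of these named genes, Calm2 and Pcp4l1 kept their calls between cholinergic and Tac1 wells in 5 and 8 of 11 alternatives, and Camk2d, Pde1c, Adcy1 and Camk1d theirs between Gpr151 groups in 6, 8, 10 and 11 of 12. In wells with Pou4f1 alone, Pde1c (-0.997, edgeR adjusted p = 0.0798), Adcy1 (-0.90, 0.0772) and Camk2d (0.22, 0.102) did not pass.

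Genes among those most like each of the 7 over the 15 series plates, by Pearson's r of log2(CPM + 1) among 10816 genes with a mean of at least 10 CPM, are a description of plates that share stages. For Nrgn they were Ano3 (0.975), AF529169 (0.974) and Syt9 (0.973), and for Gap43 Zswim4 (0.975) and Ralgds (0.971). Pcp4 was closest to the deposited Igsf5 row (0.998), then to Lrrc4c (0.975) and Dpp10 (0.944). For Camk2b they included Dnm1 (0.983) and Rell2 (0.981), and for Camk4 Olfm3 (0.966) and Kifc2 (0.961). Likeness was weaker for Camk2a, with Nrsn1 (0.905), Gne (0.899) and Ptges2 (0.893), and for Camk2n1, with Arfip2 (0.840), Cntfr (0.839) and Gm12230 (0.827).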

How the data were processed

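The authors deposited expected counts per gene and well: UMI counts corrected for collisions among 4096 possible UMIs of 6 bases, found from the values, with no scaling between wells. Inverting the correction gave whole UMIs, to within 1e-06, for 100% of values. The submitters' processing notes name mm10, Trim Galore and STAR 2.5.3a; no source used here names the counting program or the annotation. Raw counts had been planned for. The deposited expected counts were therefore summed per plate and rounded. Tables of total and of unspliced UMIs were used, and 92 spike-in rows were left out.

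Wells with at least 1000 UMIs outside mitochondrial genes, 500 genes and at most 20% mitochondrial UMIs were kept, and 0 kept wells were identical to another. No doublet caller was run. CPM, thinning to 3000 UMIs, Fano factors and 95% intervals (Clopper-Pearson for shares, Poisson for counts, covering counting error only) were computed in Python 3.11.15. The limit given for a share of 0 is 3 wells. Myelin-led wells had oligodendrocyte markers at 1% or more of UMIs and above neuron markers. Tests used edgeR 4.0.16 under R 4.3.3 (filterByExpr, TMM, quasi-likelihood F test, Benjamini-Hochberg over all genes tested, threshold 0.05), on 14 plates together for stages, without the single E12 plate, on 4 plates for side, and on sums per plate and well group with plate as block. The SE is the log2 fold change divided by the square root of F. On data simulated with the same dispersion for every gene, 74% of genes changed by a log2 of 1.5 were recovered for P4 to P7 and 85% for Gpr151 wells. The spread between the real plates was not matched, so these shares need not hold for them.

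The 7 genes, the list of 58 genes and the well groups were chosen with earlier results of these data known. Named list genes are the up to 4 called genes with the largest change per direction and comparison, plus Calm2, Calm3, Camk2d and Camk2g, and the genes most like each of the 7 are the 3 with the highest r. Some genes under these rules are not reported here. Alternatives were DESeq2 1.42.0, no filter on low counts, recovered UMIs, a minimum of 2000 UMIs, very deep wells left out (above 3 times the plate's median), each plate left out, other blocks, 4 plates alone, doubled UMI minimums, and wells with Pou4f1, the last chosen after seeing the data for the well groups. For the plate of both sides the title has the stage E1 and other labels have E18, which was used. Sequencing was done 5 plates at a time, per the labels' protocols, and no source used here says which shared a run, so run and stage cannot be told apart. Of 37994 gene IDs, 37938 were in GENCODE M21. Promoter sequences are RefSeq's.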

Additional observations from a re-analysis of the deposited data

How the results depend on the processing

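With only the 4 plates of a contrast fitted, 47 list genes were called for E11 to P4 and 2 for E18 to P4. For P4 to P7 there were 6 and for P7 to adult 5, against 21, 13, 0 and 3 in the joint fit. Over all genes, the fits of 4 plates called 8777 of 15048, 528 of 14765, 541 of 14871 and 729 of 15228 in the same order. Without a filter on low counts, 24 list genes were called for E18 to P4 and 8 for P7 to adult. Over all genes, 4820 and 1766 of 37590 were. With each plate left out in turn, the calls ranged from 8 to 12, from 2 to 27, from 0 to 0 and from 1 to 4 in the same order, and the 1 plate left in a group was then taken to vary like the others. Of the 7 genes, 2 were called between cholinergic and Tac1 wells with each plate left out, 3 to 4 between Gpr151 groups, and 0 between sides. The cause of these changes was not tested.

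Over the 83 named results, 962 alternatives were run: 883 stayed on the same side of the threshold, 65 lost a call, 14 gained one and 0 changed direction with a call. Of the 77 levels by plate group, 25 moved by more than the spread between plates when only wells with Pou4f1 were used and 8 when very deep wells were left out. Thinning to 2000 UMIs lowered the depth and moved 39 of 77 shares. Low counts limit several values, among them Camk2a on every plate and Nrgn at E11.

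No source used here says whether plates with the same number in different groups belong together. Deviations of same-numbered plates correlated at 0.279 for left and right, the highest of the values computed. They correlated at 0.0789 for E11 and P4, 0.00434 for E18 and P4, 0.131 for P4 and P7 and 0.0482 for P7 and adult. With a block for this replicate number, 19, 14, 0 and 3 list genes were called in the 4 contrasts of stages, where 3858, 2916, 1 and 493 of 17453 genes were. Between sides, 0 of the 7 genes and 6 of 15489 genes were called with it, against 0 of 15489 without it. The left and right intervals given above are from the fit without this block. With no replicate block for the plate, 2 and 3 of the 7 genes were called in the well groups, where 1249 of 12055 and 1042 of 12233 genes were.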
